A study of Mus musculus with 8 samples.

Results

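Transcripts of 9 genes of lymphoid-primed progenitors (Dntt, Flt3, Ccr9, Satb1, Notch1, Il7r, Cd27, Ikzf1 and Rag1) were followed in mouse stem cells with and without the X-linked zinc finger factor Zfx. The genes were taken by their platform gene symbol, which gave 22 probe sets, each annotated to 1 gene alone, and 9 of the 18193 genes on the array. The study hybridized 8 Affymetrix mouse whole-genome arrays in 4 groups of 2. The samples called HSC were bone marrow cells sorted as Lin- Sca-1+ c-Kit+, a gate that takes in hematopoietic stem cells and also multipotent progenitors, lymphoid-primed ones among them. HSC Zfx-cko came from Mx1-Cre+ Zfxflox/y conditional knockout mice and HSC Zfx-flox from Cre- Zfxflox/y littermates, with marrow of 4 to 6 animals pooled and taken 4 days after the last pI·C dose in both. Mx1-Cre is switched on by interferon and is not restricted to stem cells, and Cre was present in the HSC Zfx-cko group alone. The embryonic stem cell (ESC) groups were Zfx-null and control Zfx-flox clones, grown feeder-free on gelatin with LIF and 15% serum replacement. Animal age was not stated.

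Lymphoid-primed multipotent progenitors are marrow cells that have lost the ability to make red cells and platelets but can still form lymphocytes and myeloid cells. They are recognised by the cytokine receptor Flt3 and by low-level transcription of lymphoid genes, among them the enzymes that later assemble and diversify antigen receptor genes. Interleukin-7 receptor signalling and Notch1 signalling then direct such cells towards the B and T lineages, while Ikaros, the product of Ikzf1, is a nuclear factor needed early for the whole lymphoid branch.

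In HSC, most of the lymphoid-primed transcripts were higher in Zfx-cko. Dntt, terminal deoxynucleotidyl transferase, was 6.31 times as high by the ratio of mean intensities, the receptor tyrosine kinase Flt3 was 5.57 times, the chromatin organiser Satb1 3.16 times and the receptor Notch1 2.95 times. For Notch1 this is the brighter probe set, and the dimmer one read lower in Zfx-cko (0.558 times) without passing. Ikzf1 fell, at 0.701 times. In all, 6 of the 8 genes that passed the filter on low values rose and 1 fell, where a call is an adjusted p of at most 0.05 in limma. Of all 12533 genes tested in HSC, 42.0% were called: 22.4% rose and 19.5% fell. By probe set 12 of 16 tested rose and 1 fell, against 21.7% and 16.0% of all 27022 probe sets. The log2 rise was at least 1 for Dntt, Ccr9, Flt3, Satb1 and Notch1 (6.86% of all genes) and at least 2 for the first 3 of these (0.582%). Ccr9 entered the test only through Zfx-cko, with Zfx-flox at background, so its call and its size are descriptions and support nothing in these counts. The same holds for the call of 1 Il7r probe set. The members were chosen with earlier results of these data known, so all these counts are descriptions. Cd27 was tested and did not pass, and Rag1 lay below the filter. In ESC most of these genes were near the floor of the array.

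The promoter windows of 4 of the genes are shown because these genes mark the ends of the pattern: Dntt and Flt3 with large rises, Rag1 with a signal only in HSC Zfx-cko, and Ikzf1 with a fall. Each runs from 250 bases before to 50 after a RefSeq transcript start (GRCm38.p6), 5′ to 3′ on the gene's strand. Capitals mark GGGAA, the core bound by Ikaros, the E-box CANNTG, which includes CAGGTG, the RUNX sequence TGTGGT, and AGGCCT, the core of the Zfx motif, each searched on both strands.
Dntt, chr19:41029025-41029324, plus strand: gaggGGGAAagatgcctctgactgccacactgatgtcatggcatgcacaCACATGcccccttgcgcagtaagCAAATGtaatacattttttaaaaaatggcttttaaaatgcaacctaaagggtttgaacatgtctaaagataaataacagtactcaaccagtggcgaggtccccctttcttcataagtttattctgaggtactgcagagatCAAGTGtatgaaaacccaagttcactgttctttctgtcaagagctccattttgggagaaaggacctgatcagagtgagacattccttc
Flt3, chr5:147400440-147400739, minus strand: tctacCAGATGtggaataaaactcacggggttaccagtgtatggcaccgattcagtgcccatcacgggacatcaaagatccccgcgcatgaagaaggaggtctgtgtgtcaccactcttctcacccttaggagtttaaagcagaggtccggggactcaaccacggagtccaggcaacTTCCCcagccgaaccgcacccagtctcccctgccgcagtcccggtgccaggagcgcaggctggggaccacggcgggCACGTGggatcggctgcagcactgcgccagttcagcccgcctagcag
Rag1, chr2:101649483-101649782, minus strand: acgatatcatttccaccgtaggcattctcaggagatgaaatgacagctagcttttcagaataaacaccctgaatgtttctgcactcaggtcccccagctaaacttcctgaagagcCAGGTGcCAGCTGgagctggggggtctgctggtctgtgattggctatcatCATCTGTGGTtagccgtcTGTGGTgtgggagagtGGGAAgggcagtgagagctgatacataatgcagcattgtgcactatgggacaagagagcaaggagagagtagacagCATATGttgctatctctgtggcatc
Ikzf1, second listed start, chr11:11689927-11690226, plus strand: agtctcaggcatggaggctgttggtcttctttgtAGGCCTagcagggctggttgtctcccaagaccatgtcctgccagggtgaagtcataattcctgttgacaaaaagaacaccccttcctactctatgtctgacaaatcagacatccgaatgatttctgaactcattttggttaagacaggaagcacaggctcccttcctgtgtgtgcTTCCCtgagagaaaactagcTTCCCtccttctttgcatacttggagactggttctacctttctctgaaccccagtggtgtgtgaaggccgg
Dntt held 1 GGGAA and 3 CANNTG matches, and Flt3 1 and 2. Rag1 held 1 GGGAA, 4 CANNTG, 1 of them a CAGGTG, and 2 TGTGGT matches. This Ikzf1 window held 2 GGGAA matches and 1 AGGCCT, and that of its other listed start held none of the 5 motifs. Over all 9 genes and their 14 windows, GGGAA was found in 9 windows, CANNTG in 10, CAGGTG in 4, TGTGGT in 2 and AGGCCT in 2. Of all 32851 windows in the table, 62.7% held GGGAA, 72.3% CANNTG, 20.2% CAGGTG, 16.8% TGTGGT and 10.3% AGGCCT. The windows of Satb1 (5, of which 2 overlap) and Ikzf1 share a gene and are not independent.

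The arrays of a group may be duplicate hybridizations of 1 RNA sample, and the p-values then reflect array-to-array spread that may be purely technical. Arrays of 1 group correlated at r = 0.980 to 0.987 on the log2 scale across probe sets, those of different groups of a cell type at 0.963 to 0.971. HSC RNA had 2 rounds of amplification and ESC RNA 1, so cell types were set side by side and not tested. The log2 ratio of 5′ to 3′ Gapdh signal was -4.18 and -4.25 in HSC Zfx-flox, -4.68 and -4.39 in HSC Zfx-cko, and 0.38 to 0.44 in ESC. It was thus lower in both HSC Zfx-cko arrays, while the same ratio of actin overlapped between the groups (-3.46 and -3.30 in Zfx-flox, -3.60 and -3.44 in Zfx-cko). Its part in the HSC results was not tested. Of the targeted gene, the standing probe set 1425972_a_at read 696 and 752 on the HSC Zfx-flox arrays and 1192 and 1209 on the HSC Zfx-cko arrays. That was a called rise (log2 change 0.72 ± 0.11, adjusted p = 0.000815). Whether the probe set lies in the deleted part is not stated, and a probe set outside that part checks nothing. In ESC Zfx-null all 4 probe sets of Zfx alone were called higher (log2 change 0.79 for this one, 1.54 to 1.65 for the others). The shared 1428047_s_at was called higher too (1.33). These probe sets thus did not read the loss there. Probe set 1422249_s_at, shared with Zfa-ps, went from 285 and 298 to 1.32 and 0.878 in ESC, and was below the pseudocount on all HSC arrays. Of the 4 probe sets of Zfx alone and the 3 shared with Zfa-ps, none passed as lower in HSC Zfx-cko, and 2 of them were not tested there. The nearest to it, 1419565_a_at, read 109 and 162 against 97.4 and 84.7 (log2 change -0.49, adjusted p = 0.0977). In ESC it went from 69.3 ± 4.4 to 230 ± 43.3, so its HSC reading cannot be taken as a trace of the deletion. The deletion in HSC could thus not be checked from these arrays, and the group is taken from its label. The pluripotency factors Pou5f1, Nanog and Sox2 were below the pseudocount on all 4 HSC arrays, and the sort marker Kit read 1148 ± 36.9 (mean ± SD, n = 2, as for all levels) and 1426 ± 51.3. The sort marker Ly6a was not analysed here.

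Values are probe set intensities on the deposited linear scale, and changes are fitted differences of log2(intensity + 14.2) with their standard errors. The added 14.2, the 25th percentile of all values, damps changes near the floor. Where a gene has several probe sets, the one brightest on average over the 8 arrays stands for it (the standing probe set). Intensities of different probe sets cannot be set against each other as levels. In bulk RNA, a change in the share of cells of a type and a change in RNA per cell cannot be told apart.

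**Figure D1:**
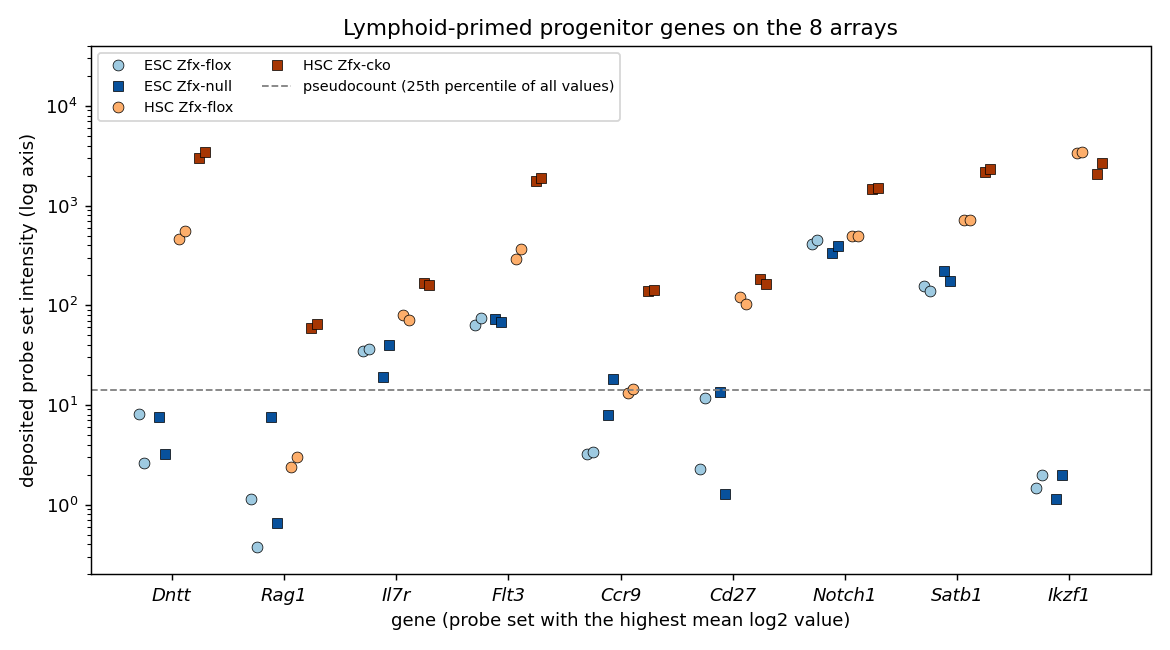
Deposited intensity (log axis) of each gene's standing probe set on the 8 arrays, 1 point per array, circles for Zfx-flox and squares for Zfx-null or Zfx-cko; the dashed line is the pseudocount of 14.2. Both HSC Zfx-cko arrays lie above both HSC Zfx-flox arrays for 8 of the 9 genes and below them for Ikzf1. Of all genes tested in HSC, this held for 39.0% and 33.4%. Among the 8, Rag1 was not tested and Ccr9 passed the filter only through Zfx-cko.

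Of the recombination enzymes, Dntt was tested and rose. It adds untemplated nucleotides at the junctions of antigen receptor genes. Its standing probe set 1449757_x_at read 462 and 559 on the HSC Zfx-flox arrays and 2992 and 3452 on the HSC Zfx-cko arrays, a log2 change of 2.63 ± 0.19 (adjusted p = 1.49e-05). The groups did not overlap and stood several-fold apart, while arrays within a group differed little. Probe set 1450545_a_at read 94.5 and 85.7 against 865 and 886 (3.09 ± 0.19, adjusted p = 6.14e-06), and 1420166_at read 28.2 and 37.7 against 143 and 153 (1.79 ± 0.22, adjusted p = 0.000253). All 3 Dntt probe sets therefore rose. Among all genes tested in HSC, the Dntt change was the 10th highest rise.

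Rag1 is the endonuclease subunit that cuts antigen receptor genes. Its 1 probe set, 1450680_at, read 2.36 and 2.98 in HSC Zfx-flox, both far below the pseudocount, and 59.1 and 65.3 in HSC Zfx-cko. On the 4 ESC arrays it read 0.374 to 7.5. HSC Zfx-cko was thus the only group with a signal above the pseudocount. The probe set lay just under the filter (mean log2 value 5.17, against a limit of 5.31 in HSC) and was not tested. With no filter on low values its log2 change was 2.18 ± 0.22 (adjusted p = 0.00025), a size set largely by the pseudocount. Rag2, the partner subunit, was below the pseudocount in both HSC groups, at 2.59 ± 1.65 and 8.91 ± 0.538, and is named for its partnership after its values were seen.

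Among the receptors, Il7r, the interleukin-7 receptor alpha chain, was higher in HSC Zfx-cko. Probe set 1448575_at read 78.9 and 71.6 in the floxed controls and 168 and 159.6 in the knockouts, a log2 change of 0.995 ± 0.24 (adjusted p = 0.0107). The dimmer 1448576_at read 23.8 and 11.4 against 59.7 and 70.01 (1.34 ± 0.27, adjusted p = 0.0037). It passed the filter only through Zfx-cko (mean log2 value 4.96 in Zfx-flox, under the limit of 5.31), so its call adds no support. Neither probe set had overlapping groups. The call of the former was lost without HSC Zfx-cko replicate 1 (log2 change 0.96, adjusted p = 0.0611) and without HSC Zfx-flox replicate 2 (0.94, adjusted p = 0.0611), within 0.00102 to 0.0611 over all alternatives.

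Flt3, the receptor whose surface display defines lymphoid-primed progenitors within this sort, rose clearly. Its probe set 1419538_at read 289.7 and 367 on the HSC Zfx-flox arrays and 1757 and 1901 on the HSC Zfx-cko arrays, a log2 change of 2.44 ± 0.14 (adjusted p = 4.2e-06). The gap between the groups was many times the spread within either. It was the 22nd highest rise among all genes tested in HSC.

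Ccr9, the chemokine receptor that guides progenitors to the thymus, was seen by only 1 of its 5 probe sets. That probe set, 1427419_x_at, read 13.2 and 14.3 on the HSC Zfx-flox arrays and 138 and 142 on the HSC Zfx-cko arrays (log2 change 2.46 ± 0.25, adjusted p = 9.06e-05). Zfx-flox lay about at the pseudocount, so the probe set passed the filter only through the group where it was high. The _x_at suffix marks probe sets whose probes may also match other transcripts. The other 4 were not tested. On the HSC arrays they lay below the pseudocount, apart from 1 Zfx-cko array at 30.45 for 1436065_at and 1 at 25.8 for 1421920_a_at, so the rise rests on the 1 probe set.

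Cd27, a TNF-receptor family member found on multipotent progenitors and lymphocytes, read 119.7 and 102 on the HSC Zfx-flox arrays and 185 and 163 on the HSC Zfx-cko arrays. The groups did not overlap, but the change did not pass (log2 change 0.59 ± 0.32, adjusted p = 0.192, 95% interval -0.14 to 1.32). The error pools the spread of all 8 arrays, and on the 4 ESC arrays Cd27 scattered from 1.26 to 13.6, below the pseudocount. In a fit of the HSC arrays alone it passed (adjusted p = 0.0117, within 0.0117 to 0.702 over all alternatives).

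Notch1, the receptor that commits progenitors to the T lineage, was read by a pair of probe sets that disagreed. The brighter one, 1418634_at, read 499 and 499 on the HSC Zfx-flox arrays and 1456 and 1491 on the HSC Zfx-cko arrays (log2 change 1.54 ± 0.09, adjusted p = 6.25e-06). The dimmer one, 1418633_at, read 65.6 and 43.1 against 39.1 and 21.6 and did not pass (-0.63 ± 0.27, adjusted p = 0.102). It passed as a fall with both quantile normalizations and with median centring (adjusted p = 0.0337 to 0.0401, within 0.0337 to 0.444 over all alternatives). With the mean of both probe sets the log2 change of Notch1 was 0.45 ± 0.15 (adjusted p = 0.045). The annotation does not say which part of the transcript each one reads.

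Satb1, a nuclear protein that folds chromatin loops and is required for T cell development, rose in 4 of its 5 probe sets. The standing probe set 1416008_at read 709.7 and 716 on the HSC Zfx-flox arrays and 2155 and 2350 on the HSC Zfx-cko arrays (log2 change 1.64 ± 0.11, adjusted p = 1e-05). The others rose by 1.37 ± 0.17 (1416007_at), 1.87 ± 0.20 (1436182_at) and 1.89 ± 0.25 (1439449_at). The fifth, 1439315_at, read 12.2 to 30.9 on the HSC arrays and was not tested.

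Ikzf1 was the 1 member that fell. Over the 8 genes tested in HSC, both Zfx-cko arrays lay above both Zfx-flox arrays for 7 (39.0% of all genes) and below them for 1 (33.4%). The 7 include Ccr9, which passed the filter only through Zfx-cko. The standing probe set of Ikzf1, 1436312_at, read 3378 and 3452 on the HSC Zfx-flox arrays and 2092 and 2699 on the HSC Zfx-cko arrays (log2 change -0.52 ± 0.14, adjusted p = 0.0164). The Zfx-cko arrays were both lower, and differed from each other more than the Zfx-flox arrays did. The adjusted p was 0.167, 0.0871 and 0.106 without HSC Zfx-cko replicate 1, HSC Zfx-flox replicate 1 and HSC Zfx-flox replicate 2, within 0.00661 to 0.262 over all alternatives, and without HSC Zfx-cko replicate 1 the log2 change was -0.34. It also missed the threshold with a smaller pseudocount (adjusted p = 0.0569) or none (0.262), and the mean of both probe sets changed by -0.19 (adjusted p = 0.622). The dim probe set 1421303_at read 37.4 and 18.4 against 26.9 and 35.8, with overlapping groups (0.14 ± 0.47, adjusted p = 0.845).

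**Figure D2:**
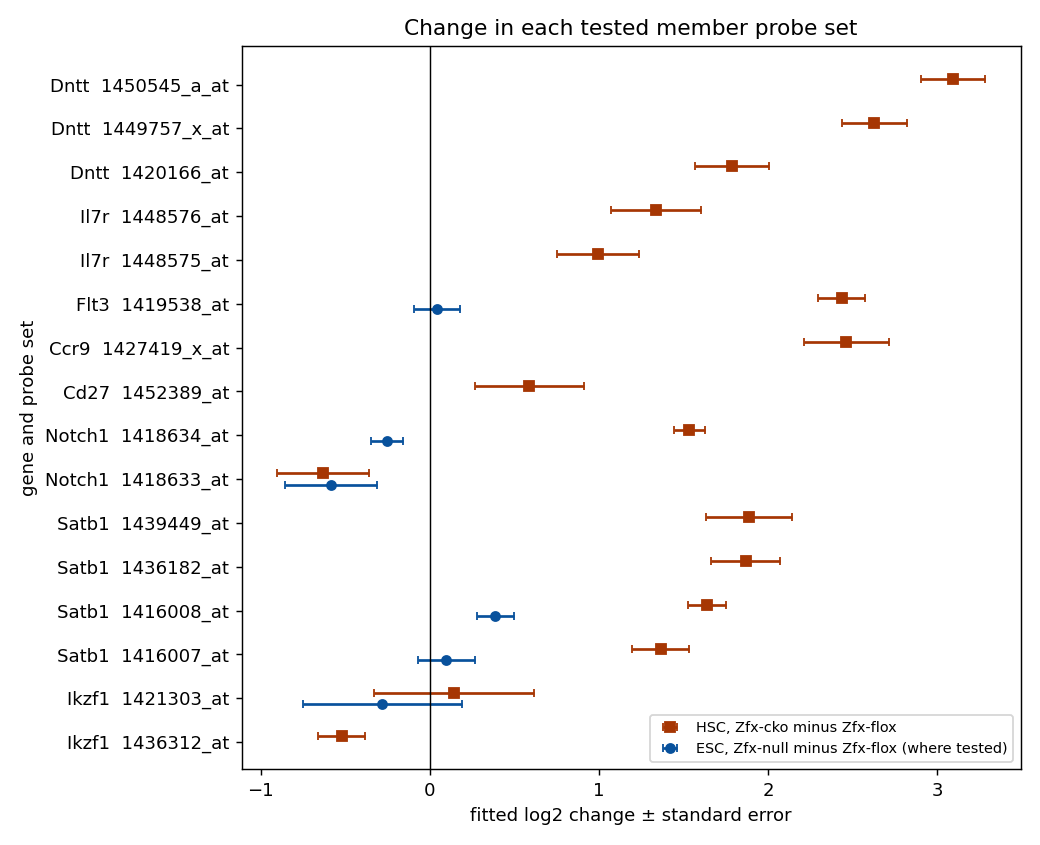
Fitted log2 change (x axis) ± standard error of each member probe set that passed the filter, squares for HSC Zfx-cko minus Zfx-flox and circles for ESC Zfx-null minus Zfx-flox where tested. In HSC 12 of 16 probe sets rose and 1 fell, beside 21.7% and 16.0% of all probe sets tested. The largest rise was 3.09 for Dntt 1450545_a_at, and the Notch1 pair points in opposite directions.

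In ESC the same genes showed little. Of the 22 probe sets, 6 passed the filter in ESC, and 6 were below the pseudocount on all 4 arrays, among them the standing probe sets of Dntt, Rag1, Cd27 and Ikzf1. Of all 12676 genes tested in ESC, 29.4% were called, against 1 of the 3 member genes tested. The Zfx-null arrays lay above the Zfx-flox arrays for Satb1 (as for 30.1% of all genes) and below them for Notch1 (34.3%), and the arrays overlapped for Flt3. Satb1 1416008_at read 155 and 140.1 without the deletion and 219.8 and 177 with it, a log2 change of 0.39 ± 0.11 (adjusted p = 0.0331). This call was lost without any 1 of 7 arrays (adjusted p 0.0527 to 0.164), the exception being ESC Zfx-null replicate 2. The log2 change was 0.24 without Zfx-null replicate 1. Satb1 1416007_at did not pass (0.10 ± 0.17, adjusted p = 0.725).

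Flt3 read 62.7 and 74.0 in ESC Zfx-flox and 73.6 and 67.9 in Zfx-null, with overlapping groups (log2 change 0.04 ± 0.14, adjusted p = 0.856, 95% interval -0.27 to 0.36). Notch1 1418634_at read 415 and 450.4 against 332 and 393 (-0.25 ± 0.09, adjusted p = 0.0864), and it passed as a fall without ESC Zfx-null replicate 2 (-0.37, adjusted p = 0.0313, within 0.0313 to 0.371 over all alternatives). Notch1 1418633_at read 119 and 161 against 77.3 and 98.8 (-0.59 ± 0.27, adjusted p = 0.155). Both Notch1 probe sets thus read lower in Zfx-null ESC without passing. Dntt 1450545_a_at was at 8.25 and 3.37 against 20.3 and 25.4, around the pseudocount, and was tested only with no filter (0.89 ± 0.19, adjusted p = 0.019).

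Side by side over the 4 groups, the standing probe sets of all genes but Ikzf1 were highest in HSC Zfx-cko. HSC Zfx-flox came next for Dntt, Il7r, Flt3, Cd27, Satb1 and Notch1. For Notch1, HSC Zfx-flox (499 ± 0.399) and ESC Zfx-flox (433 ± 25.1) were close, whereas for Dntt they were 511 ± 68 and 5.39 ± 3.89. For Ccr9 (13.7 ± 0.788 in HSC Zfx-flox, 13 ± 7.33 in ESC Zfx-null) and Rag1 (2.67 ± 0.438 and 4.08 ± 4.85) these groups did not differ beyond their spread. The Satb1 probe set 1416007_at had another order, with ESC Zfx-flox (165 ± 2.43) above HSC Zfx-flox (107 ± 17.9). ESC Zfx-flox and Zfx-null did not differ beyond their spread for Dntt, Flt3, Il7r, Cd27, Rag1 and Ikzf1.

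The HSC change exceeded the ESC change for 12 of 16 member probe sets in the test of the difference, against 15.1% of all 31215 probe sets tested, and was below it for none (11.8%). By gene 6 of 8 were called, against 30.5% of all genes in either direction. Ccr9 1427419_x_at and Il7r 1448576_at entered this test only through HSC Zfx-cko, so their calls support nothing in these counts. For Notch1 1418634_at the difference was 1.79 ± 0.13 (adjusted p = 5.35e-05), for Flt3 2.39 ± 0.19 (adjusted p = 8.22e-05) and for Satb1 1416008_at 1.25 ± 0.16 (adjusted p = 0.000686). These had signal in both cell types. Ikzf1 1436312_at did not pass (-0.50 ± 0.20, adjusted p = 0.0916), nor did Cd27 (0.59 ± 0.46, adjusted p = 0.391). Where the ESC signal lies at the floor, a fall there could not have been seen, and an equal fold rise may have been missed.

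**Figure D3:**
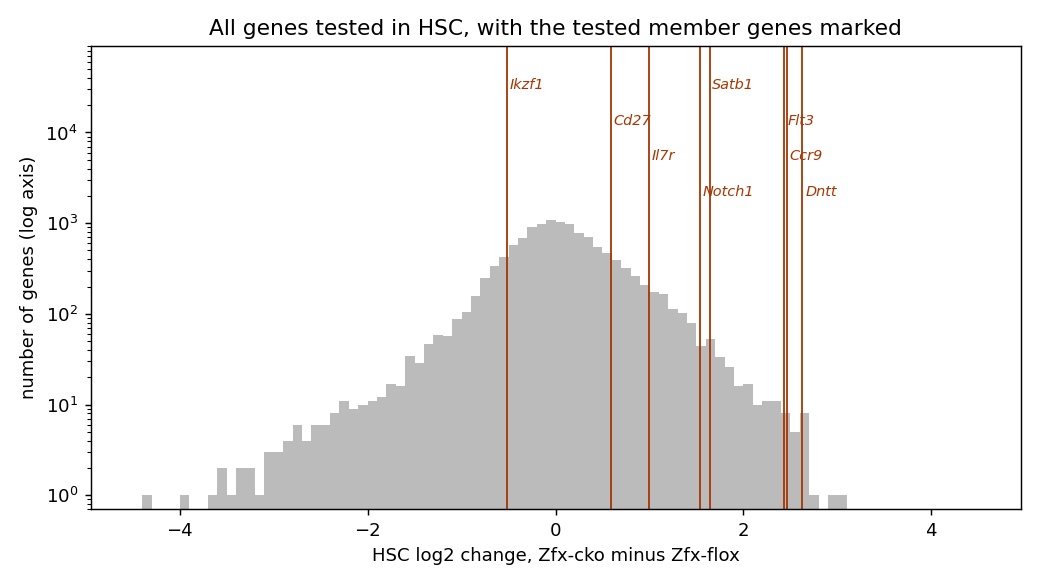
Number of genes (log axis) by HSC log2 change over the 12533 genes tested, in bins of the change, with a line at each tested member gene. Dntt, Ccr9 and Flt3 lie at 2.44 to 2.63, near the upper end, and Ikzf1 at -0.52 lies left of the centre.

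The genes with the profiles closest to those of the called members over all 8 arrays were named by the smallest root mean square difference of mean-centred log2 values. For Flt3 these were Fxyd5 (difference 0.157), Meis1 (0.176), a homeobox factor of stem cells, and Ipcef1 (0.248). Meis1 went from 595 to 3243 in HSC, a log2 change of 2.42 ± 0.10. For Notch1 they were Gcnt2 (0.102), Trps1 (0.108) and Tbc1d10c (0.121), and for Satb1 9030619P08Rik (0.141), the adaptor Pik3ap1 (0.142) and the zinc finger gene Zbtb20 (0.149). For Dntt they were less close, with Bex6 (0.393), the phosphodiesterase Pde4b (0.416) and Gimap8 (0.416), as for Ccr9 with Gp9 (0.283; it too passed the filter only through Zfx-cko), Nlrc3 (0.289) and Mical1 (0.316). Il7r was nearest to Cacnb2 (0.108), Rab17 (0.122) and Gpr18 (0.151). Of these, Cacnb2 did not pass in HSC (0.78 ± 0.29, adjusted p = 0.0638), Rab17 did (1.22 ± 0.27, adjusted p = 0.0065), and so did Gpr18 (0.79 ± 0.25, adjusted p = 0.034). The Gpr18 call was lost without any 1 HSC array (adjusted p 0.0831 to 0.156) and that of Rab17 without HSC Zfx-cko replicate 1 (1.06, adjusted p = 0.0544). Ikzf1 was nearest to Vamp5 (0.120), and less so to Ifi47 (0.352) and Myb (0.454). Cacnb2 passed without ESC Zfx-null replicate 1 or 2 (adjusted p = 0.0201 and 0.0218), and Ifi47, at -0.46 ± 0.28 (adjusted p = 0.228), passed as a fall without either (0.00283 and 0.00319). The likeness is a description over 8 arrays that share the contrast between cell types.

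This list and those that follow were chosen with earlier results of these data known, so their counts are descriptions. Of 20 tested transcription factors of lymphoid development, 10 rose, none fell and 10 did not pass, beside 22.4% of all genes higher and 19.5% lower. The median log2 change was 0.54, beside 0.03 over all genes. Id2, an inhibitor of E proteins, went from 149.9 ± 28 to 549.9 ± 12.8 (log2 change 1.79 ± 0.14), Runx1 from 289 ± 16.2 to 842 ± 34.2 (1.499 ± 0.12), Mef2c, a factor of the lymphoid-myeloid choice, from 1069 ± 31.8 to 2936 ± 170 (1.44 ± 0.17), and the Ikaros relative Ikzf2 from 2138 ± 121 to 5195 ± 414 (1.27 ± 0.09). Ikzf2 thus rose where Ikzf1 fell. In ESC Zfx-null 8 of 16 tested factors rose and 1 fell, beside 15.2% of all genes higher and 14.2% lower. Ikzf2 (1.35 ± 0.09), Runx1 (1.29 ± 0.12) and Id2 (0.80 ± 0.14) were among the 8. The test of the difference between cell types did not pass for Ikzf2, Runx1 and Mef2c (adjusted p = 0.685, 0.416 and 0.818), and passed for Id2 (0.00657). In HSC Myb (8909 ± 244 to 10035 ± 349) and Bcl11a (3507 ± 42.2 to 2571 ± 120) did not pass, at 0.17 ± 0.12 and -0.45 ± 0.46. Bcl11a passed as a fall with the HSC arrays alone (adjusted p = 0.000373) and without ESC Zfx-flox replicate 1 or 2 (adjusted p = 0.0048 and 0.00384).

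Of 13 tested receptor and cytokine signalling genes, 6 rose and none fell (median 0.27), beside 22.4% of all genes higher and 19.5% lower. The survival factor Bcl2 went from 815 ± 16.6 to 2641 ± 21 (log2 change 1.68 ± 0.17), the TSLP receptor Crlf2 from 358 ± 42.5 to 923 ± 115 (1.33 ± 0.11), the cytokine gene Il7 from 47.5 ± 5.44 to 114 ± 14.1 (1.05 ± 0.20) and the chemokine receptor Cxcr4 from 281 ± 4.26 to 539 ± 4.94 (0.90 ± 0.14). Mcl1, a survival factor downstream of interleukin-7, did not pass (6190 ± 969 to 7395 ± 384, 0.26 ± 0.10), and nor did the integrin Itga4 (1402 ± 5.1 to 1214 ± 63.4, -0.21 ± 0.12). Mcl1 passed without HSC Zfx-flox replicate 2 (0.42, adjusted p = 0.00877). With the HSC arrays alone 8 genes of the list rose and 2 fell, Itga4 among the latter. In ESC Zfx-null 3 of 10 tested genes of the list rose and none fell, beside 15.2% of all genes higher and 14.2% lower. Cxcr4 was among the 3 (1.22 ± 0.14).

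Of 25 tested genes of the Notch pathway other than Notch1, 4 rose and 4 fell (median -0.02). Both shares are below those of all genes (22.4% higher and 19.5% lower), so the counts are no result about the pathway. Those that rose were Rbpj, the DNA-binding partner of cleaved Notch, the sheddase Adam17, the gamma-secretase subunit Psenen and the glycosyltransferase Mfng. Those that fell were the target Hes1 (125 ± 2.28 to 70.1 ± 16.1, log2 change -0.74 ± 0.15), the gamma-secretase subunits Psen2 (-0.995 ± 0.16) and Aph1a, and the glycosyltransferase Rfng (-0.86 ± 0.14). Rbpj, Adam17, Psenen and Aph1a are named after their values were seen. The receptor Notch2 (3062 ± 4.94 to 3249 ± 87.6, 0.09 ± 0.06) and the sheddase Adam10 (0.05 ± 0.05) did not pass. The count of calls fell from 8 to 5 without HSC Zfx-cko replicate 1 or HSC Zfx-flox replicate 1. The call of Mfng (0.51 ± 0.14, adjusted p = 0.0174) was lost without HSC Zfx-cko replicate 1, Zfx-flox replicate 1 or Zfx-flox replicate 2 (adjusted p 0.127, 0.072 and 0.0721).

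Of 15 tested genes of V(D)J recombination and the pre-B or pre-T receptor, 5 rose and 1 fell (median 0.21), beside 22.4% of all genes higher and 19.5% lower. The surrogate light chain genes Vpreb1 (47.1 ± 16.2 to 180.3 ± 12.5, log2 change 1.69 ± 0.49, adjusted p = 0.0246) and Igll1 (10.04 ± 0.468 to 53.1 ± 7.12, 1.47 ± 0.38, adjusted p = 0.0142) rose. Both Zfx-flox arrays of Igll1 were below the pseudocount, so it passed the filter only through Zfx-cko and its size depends on the pseudocount. Its call therefore supports nothing in this count. That of Vpreb1 was lost with a smaller pseudocount (adjusted p = 0.0952) or none (0.186), with no filter (0.0505) and with no variance trend (0.0581). The receptor subunit Cd79b (69.2 ± 0.625 to 216 ± 10.01, 1.46 ± 0.24), the damage kinase Atm (0.90 ± 0.19) and the ligase Lig4 (0.87 ± 0.15) rose too. The end-binding protein gene Xrcc5 fell (-0.39 ± 0.10); it and Lig4 are named after their values were seen. The calls of Vpreb1 and Igll1 were each lost without any 1 of the 4 HSC arrays (adjusted p 0.0522 to 0.135 and 0.0503 to 0.0816). The count fell from 6 to 3 without HSC Zfx-cko replicate 2 or Zfx-flox replicate 1. Ighm, whose sterile transcript is made early in the lymphoid branch, read 5344 ± 198 and 7775 ± 156 and did not pass (0.54 ± 0.21, adjusted p = 0.0716), while it passed with the HSC arrays alone (adjusted p = 8.76e-05) and without ESC Zfx-flox replicate 1 or 2 (0.00546 and 0.0057). Hmgb2, a cofactor of the Rag complex, did not pass (0.08 ± 0.07).

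Of 18 tested genes of Ikaros partners, none rose and 6 fell (median -0.12), beside 22.4% of all genes higher and 19.5% lower. Most are subunits of NuRD or SWI/SNF, and the list also holds the corepressors Ctbp1 and Sin3a. The methyl-DNA binder Mbd2 went from 2227 ± 116 to 1065 ± 3.37 (log2 change -1.05 ± 0.07), Mta1 from 246 ± 20.5 to 139 ± 60.7 (-0.82 ± 0.24), Mta2 from 293 ± 2.25 to 204 ± 3.94 (-0.49 ± 0.08) and the corepressor Ctbp1 from 4196 ± 233 to 3065 ± 24.8 (-0.45 ± 0.06). The histone chaperones Rbbp4 and Rbbp7 did not pass, at 0.07 ± 0.06 and 0.06 ± 0.05. The Mta1 call (adjusted p = 0.0235) was lost without HSC Zfx-cko replicate 2 (-0.41, adjusted p = 0.12), Zfx-flox replicate 1 (adjusted p = 0.115) or Zfx-flox replicate 2 (0.0649). Without a variance trend 3 genes of the list fell.

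**Figure D4:**
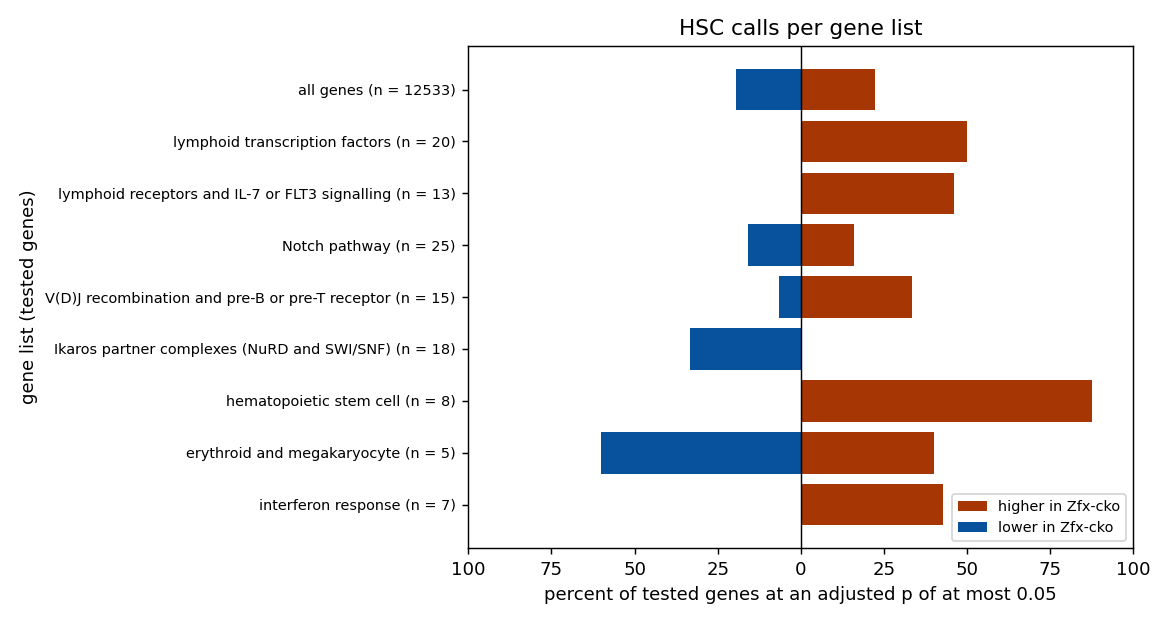
Percent of the tested genes of each list that were higher (right) or lower (left) in HSC Zfx-cko at an adjusted p of at most 0.05, with the number tested, beside all 12533 genes. The 2 lymphoid lists at the top have calls on the right side alone, the Notch list is balanced, and the Ikaros partner list has calls on the left alone.

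Marker lists of other blood cells were read next. The Lin- gate is meant to remove mature B, T, NK, granulocytic and erythroid cells. Some of these markers moved with the lymphoid genes, and their part in the results was not tested. Of the B cell markers, 4 of 5 were measured, and their summed intensity went from 169.7 to 187 in HSC Zfx-flox to 344 to 401 in Zfx-cko. Among them Cd79b rose, while Ms4a1 (0.39 ± 0.26) and Cd22 (0.38 ± 0.33) did not pass and Cd79a, at 19.8 ± 10.7 and 27.9 ± 2.41, was not tested. Of 6 T cell markers, Cd3e, Cd3d, Cd3g, Cd4 and Cd2 were below the pseudocount on all 4 HSC arrays, and the sum was 116 to 149 and 112 to 155. The sixth, the coreceptor gene Cd8a, carried the sum, at 98.7 ± 15 and 95.4 ± 12.9 (-0.04 ± 0.17, adjusted p = 0.882). The T cell receptor complex genes Cd3e, Cd3d and Cd3g thus gave no signal above the pseudocount in either HSC group.

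The NK cell sum, of 3 of 4 markers, went from 1157 to 1181 to 2829 to 3038, carried by Nkg7 (1126 ± 6.28 to 2884 ± 154, 1.34 ± 0.43, adjusted p = 0.0341), whose call was lost without any 1 HSC array (adjusted p 0.108 to 0.134). Ncr1, the defining receptor, read 21.8 ± 0.486 and 13.9 ± 3.57 and was not tested. The sum of the 6 plasmacytoid dendritic cell markers, which include Ccr9, went from 2855 to 3055 to 4535 to 4583, carried mostly by Tcf4. The factor Tcf4 rose (2298 ± 79.1 to 3665 ± 6.95, 0.67 ± 0.06), and it read 1136 ± 20.6 in ESC Zfx-flox. Ccr9 rose too, but passed the filter only through Zfx-cko. Siglech, the defining surface lectin, read 31.1 ± 21.8 and 37.1 ± 17.6 (0.22 ± 0.38, adjusted p = 0.69). Irf8 did not pass (0.68 ± 0.28, adjusted p = 0.0866, and 0.00119 with the HSC arrays alone), and nor did Bst2 (-0.57 ± 0.27). Irf8 passed without ESC Zfx-flox replicate 1 or 2 (adjusted p = 0.00583 and 0.00696), and Bst2 as a fall without ESC Zfx-null replicate 1 or 2 (0.0118 and 0.0131).

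Of 8 measured genes of the stem cell list 7 rose, beside 22.4% of all genes, and their sum went from 4356 to 4521 in HSC Zfx-flox to 13188 to 13257 in Zfx-cko. The list is not restricted to stem cells, since the sort marker Kit in it is shared by all cells of this gate. Which cells of the gate carry the other transcripts of the list was not tested. Procr rose by 2.47 ± 0.12, Meis1 by 2.42 ± 0.10, Mecom by 1.75 ± 0.25 and Cd34 by 1.62 ± 0.10, while Slamf1 did not pass (0.36 ± 0.18). In ESC Zfx-null 2 of 6 tested genes of the list rose and none fell, beside 15.2% of all genes higher and 14.2% lower. Procr was 1 of the 2 (1.62 ± 0.12). In HSC erythroid regulators went the other way, with Klf1 at 1924 ± 71.2 and 324 ± 8.43 (-2.52 ± 0.20), Gata1 at -1.64 ± 0.25 and the erythropoietin receptor Epor at -1.32 ± 0.19. The platelet gene Pf4 rose (930.3 ± 61.5 to 3389 ± 21.4, 1.85 ± 0.18), as did the megakaryocyte integrin gene Itga2b. Itga2b is named after its values were seen.

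Of 8 granulocyte and monocyte markers measured, 7 were tested. Lyz2 rose by 1.30 ± 0.19 and Ctsg by 0.52 ± 0.10, none fell, and Mpo (0.31 ± 0.21) and Prtn3 (0.18 ± 0.26) did not pass. Itgam was below the pseudocount on all HSC arrays. The 2 rises are near the share of all genes (22.4% higher, 19.5% lower), so their count is no result about these cells. The sum went from 15573 to 15658 to 19923 to 20505. Of 3 mast cell and basophil markers, Cpa3 rose (1090 ± 9.92 to 2521 ± 173, 1.20 ± 0.30, adjusted p = 0.0116), and Ms4a2 and Mcpt8 did not pass (0.08 ± 0.32 and 0.41 ± 0.29), with a sum of 1726 to 1784 and 3220 to 3377. The Cpa3 call was lost without HSC Zfx-cko replicate 2 (adjusted p = 0.0705), Zfx-flox replicate 1 (0.0571) or Zfx-flox replicate 2 (0.056). Of 7 interferon response genes, which pI·C induces, 3 rose and none fell, beside 22.4% of all genes higher and 19.5% lower. The 3 were Rsad2 (169 ± 7.21 to 486 ± 14.3, 1.45 ± 0.13), Ifit1 (1.30 ± 0.20) and Oas1a (0.51 ± 0.09). Irf7 (0.20 ± 0.24) and Usp18 (-0.30 ± 0.23) did not pass, and the sum went from 1482 to 1576 to 2426 to 2435.

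**Figure D5:**
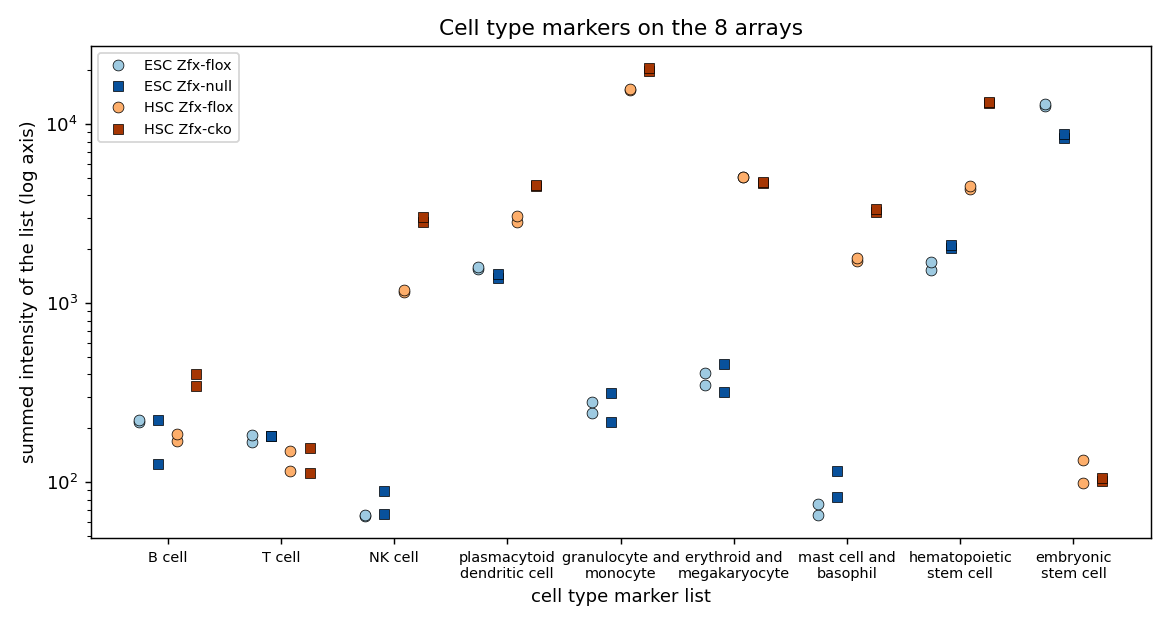
Summed intensity (log axis) of the measured markers of each cell type on the 8 arrays, 1 point per array, circles for Zfx-flox and squares for Zfx-null or Zfx-cko. In HSC the stem cell sum is at least 13188 in Zfx-cko against at most 4521 in Zfx-flox, and the T cell sums of the groups overlap.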

How the data were processed

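Probe set intensities on a linear scale were deposited; the authors made them with GCOS 1.4, per the submitters' processing notes, which give no settings here. Each column had a mean of 250.001 to 250.002 without its highest and lowest 2%, so the arrays were scaled to a common target. The 64 control probe sets were left out, leaving 45037; 34945 had 1 platform gene symbol, 932 several and 9160 none. Log2(intensity + 14.2) was fitted with limma 3.58.1 in R 4.3.3, as 4 group means over all 8 arrays (eBayes, trend by mean level; residual degrees of freedom 4, prior 4.87). Probe sets at or above the 40th percentile of the mean log2 value in a cell type were tested there (27022 each, 31215 for the difference), with Benjamini-Hochberg adjustment over all of them. The fit was tested on simulated data. Arrays have no counts, so their number limits the precision: the median standard error was 0.169 in HSC and 0.168 in ESC. Members and lists were chosen with earlier results of these data known. Named were, per list, at most 4 called genes, taken by size of change, and at most 2 uncalled ones, taken by level in HSC Zfx-flox, besides the members, Zfx, Kit and the 3 nearest genes of each called member; exceptions are stated. Listed genes without a probe set of 1 symbol were not analysed here. Promoter windows matched 9 of 9 genes by symbol.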

Additional observations from a re-analysis of the deposited data

Results flagged for a closer look

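The HSC and the ESC effect of Zfx loss differed by the test of the difference for 12 member probe sets, in each as a higher log2 change in HSC. For Dntt the differences were 1.34 (1420166_at, adjusted p = 0.0127), 2.62 (1449757_x_at, adjusted p = 0.000261) and 2.20 (1450545_a_at, adjusted p = 0.000578), for Flt3 2.39 and for Ccr9 1.85 (1427419_x_at, adjusted p = 0.00528). For Satb1 they were 1.27 (1416007_at), 1.25 (1416008_at), 1.11 (1436182_at, adjusted p = 0.0198) and 2.24 (1439449_at). For Notch1 the value was 1.79 (1418634_at), and for Il7r 1.22 (1448575_at, adjusted p = 0.029) and 1.77 (1448576_at, adjusted p = 0.00858). In ESC only Flt3, Satb1 1416007_at, Satb1 1416008_at and Notch1 1418634_at of these passed the filter on low values, so for the other 8 the ESC change was read near the floor. Of these 8, Ccr9 1427419_x_at and Il7r 1448576_at entered the test only through HSC Zfx-cko, and their calls add no support. The call of Satb1 1436182_at was lost without ESC Zfx-flox replicate 1, ESC Zfx-null replicate 2, HSC Zfx-cko replicate 1 or HSC Zfx-flox replicate 1 (adjusted p = 0.0525, 0.0543, 0.0819 and 0.0685). That of Il7r 1448575_at was lost without any 1 array (adjusted p 0.0609 to 0.0853) other than ESC Zfx-null replicate 2 (0.00759). No group had enough arrays for a test of single outlying samples.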

How the results depend on the processing

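Of 667 recomputed member values under 20 other settings, 613 kept their direction and their side of the threshold, 39 no longer passed, 5 newly passed and 10 changed sign, none of the last past the threshold. The HSC calls of Dntt, Flt3, Satb1 and Notch1 1418634_at held in every setting in which they were tested. The count of called member genes was 7 in HSC, 5 to 7 without single arrays and 5 to 8 otherwise. In ESC it was 1, 0 to 2 without single arrays, and 0 with median centring, no filter, no variance trend, the ESC arrays alone or the mean of all probe sets of a gene. Called probe sets numbered 10181 in HSC, 7558 to 10326 without single arrays. Of them 57.5% were higher, and 47.4% with median centring; for the HSC minus ESC effect these were 56.2% and 43.3%. Without single arrays the following changed sign. In HSC Ikzf1 1421303_at ranged from -0.19 (without HSC Zfx-flox replicate 2) to 0.48. In ESC Flt3 ranged from -0.055 (without Zfx-flox replicate 1; -0.0040 without Zfx-null replicate 1) to 0.14. Without ESC Zfx-null replicate 1, Satb1 1416007_at was at -0.12 in ESC (up to 0.31 otherwise) and Ikzf1 1421303_at at 0.54 (down to -1.10), with a difference between cell types of -0.39 (up to 1.24). The difference of Notch1 1418633_at ranged from -0.33 to 0.24, and was above 0 without ESC Zfx-flox replicate 1 (0.16), ESC Zfx-null replicate 2 (0.11), HSC Zfx-cko replicate 2 (0.24) or HSC Zfx-flox replicate 1 (0.19). The causes were not tested. Without a pseudocount the difference of Dntt 1420166_at was 1.42 (adjusted p = 0.0685), of Dntt 1450545_a_at 1.18 (0.191), of Ccr9 1427419_x_at 1.49 (0.206) and of Satb1 1436182_at 0.30 (0.726). The difference of Il7r 1448575_at no longer passed in 12 of 17 settings. The labels share replicate numbers, but arrays of 1 number deviated together weakly (r = 0.07 in HSC, 0.32 in ESC). With the replicate block 10332 probe sets passed in HSC, 6849 in ESC and 8502 for the difference, and no member call changed.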
